A study of Homo sapiens with 32 samples.

Results

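The proximal signalling components of the B cell receptor were examined as 9 genes, CD79A, CD79B, SYK, BTK, BLNK, PLCG2, VAV1, VAV2 and VAV3, of the 25066 features in the deposited expression table, each found by its exact gene symbol. RNA had been sequenced from 2 human diffuse large B cell lymphoma lines, TMD8, classed with activated B cells, and DOHH2, classed with germinal centre B cells. Both lines carried the genotype label Cas9 engineered, grew in advanced RPMI with 5% FBS, penicillin, streptomycin and glutamine, and received either the vehicle DMSO or CSKi, a CSK inhibitor, at 500 nM, for 1, 3, 6 or 24 h. This gave 16 groups of 2 libraries. Each lymphoma type was represented by 1 line, the labels do not say whether the engineered cells were a clone or a pool, and the duplicates are called bio replicates without further detail, so every p-value measures the spread between these libraries, which may be technical. In bulk RNA, fewer cells of a type and less RNA per cell cannot be told apart.

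The B cell receptor is a membrane immunoglobulin held with the signalling chains CD79A and CD79B, whose tails carry the tyrosine motifs that Src family kinases, chiefly LYN in B cells, phosphorylate. The kinase SYK docks on those motifs and phosphorylates the adaptor BLNK, which brings together the kinase BTK, its substrate phospholipase PLCG2 and the VAV exchange factors. PLCG2 makes the messengers that release calcium and activate protein kinase C, and VAV proteins act on the cytoskeleton. CSK holds Src family kinases in check by phosphorylating their inhibitory tail tyrosine. TMD8 is known for chronically active signalling through this receptor. All values below are RNA levels and say nothing of phosphorylation.

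Libraries held 12273442 to 24907030 mapped reads. Duplicates of 14 groups differed with a standard deviation of 0.170 to 0.226 in log2 over the tested features, whereas those of DOHH2 at 24 h differed by 0.328 in DMSO and 0.381 in CSKi. There, DMSO replicate 1 lay closer to CSKi replicate 2 (0.218) than to its own duplicate, and DMSO replicate 2 closer to CSKi replicate 1 (0.275). The 4 libraries were kept under their labels, left out of all fits of DOHH2 at 1, 3 and 6 h and of the lines together, and described separately. Marker genes matched the line labels, and B cell markers (6, CD79A and CD79B among them) summed to 3650 to 4979 CPM in TMD8 and 1445 to 1875 in DOHH2. Markers of the activated B cell type summed to 3407 to 4073 in TMD8 and 232 to 258 in DOHH2, and germinal centre markers to 108 to 213 and 799 to 1130. T and NK cell markers summed to at most 15.9 in any library. Fibroblast and epithelial markers (8) summed to 124 to 185 in TMD8, most of it CDH1 (without it 17.9 to 52.5, with KRT18 at 0 in every TMD8 library), and myeloid markers (8) to 63.8 to 92.0, most of it CD68 (without it 3.06 to 6.22).

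Upstream sequence is shown for CD79A, BLNK and VAV2, because CD79A moved against its partner chain in DOHH2, and BLNK and VAV2 moved in opposite directions in TMD8 at 3 and 6 h. RefSeq windows (GRCh38.p14) were matched for 8 of the 9 members, with no match for CD79B. Each line below gives the 250 bases before the gene's start site, 5′ to 3′ on the gene's strand, at chr19:41877029-41877278 (+) for CD79A, chr10:96271570-96271819 (-) for BLNK and chr9:133992325-133992574 (-) for VAV2. Capitals mark any match, on either strand, to GGGCGG (the GC box), CAGGTG or CAGCTG (E boxes), GAGGAAG (an ETS type motif), ATTTGCAT (the octamer), CCCNNGGGA (an EBF type motif) or GCGNGGGCG (an EGR type motif).
CD79A: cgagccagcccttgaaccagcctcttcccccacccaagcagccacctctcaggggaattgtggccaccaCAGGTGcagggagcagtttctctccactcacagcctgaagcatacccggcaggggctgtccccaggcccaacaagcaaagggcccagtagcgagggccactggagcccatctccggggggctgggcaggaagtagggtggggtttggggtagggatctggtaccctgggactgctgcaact
BLNK: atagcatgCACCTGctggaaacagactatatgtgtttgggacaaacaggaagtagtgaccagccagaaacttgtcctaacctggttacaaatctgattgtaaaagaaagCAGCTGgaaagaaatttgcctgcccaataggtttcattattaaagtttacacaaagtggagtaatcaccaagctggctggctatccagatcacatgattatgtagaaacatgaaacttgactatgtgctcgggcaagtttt
VAV2: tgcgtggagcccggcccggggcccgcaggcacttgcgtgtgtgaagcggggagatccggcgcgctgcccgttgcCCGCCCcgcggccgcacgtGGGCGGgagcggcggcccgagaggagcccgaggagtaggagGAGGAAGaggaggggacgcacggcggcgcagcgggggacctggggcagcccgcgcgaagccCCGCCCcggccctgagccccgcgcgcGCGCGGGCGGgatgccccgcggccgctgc
The VAV2 window held 4 GC boxes, 1 ETS type motif and 1 EGR type motif that overlapped the GC box nearest the start site. The BLNK window held 1 match to each E box and no GC box, and the CD79A window held 1 match, to CAGGTG. Of 35116 promoter windows of this length, 42.6% held a GC box, 17.5% CAGGTG, 14% CAGCTG, 11.2% the ETS type motif and 8.41% the EGR type motif. A match is a run of letters and not a bound site.

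Levels in vehicle were compared between genes as RPKM, which scales reads by the length of the longest coding transcript and by the mapped reads of the library. The receptor chains had the highest levels of the 9 in both lines. CD79B ranged from 403 to 553 (median 527, 8 libraries) in TMD8 and from 268 to 329 (median 303, 6 libraries at 1, 3 and 6 h) in DOHH2, and CD79A from 438 to 517 (median 484) and from 221 to 255 (median 251). In TMD8 these ranges overlapped, and with the median transcript length in place of the longest CD79A came before CD79B in both lines, so the order of the 2 chains is not settled.

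The kinases followed. BTK ranged from 150 to 166 in TMD8 and from 190 to 220 in DOHH2, and SYK from 108 to 137 and from 107 to 130, without overlap between BTK and SYK in either line. BLNK was next by its median, at 86.1 to 110 in TMD8 and 63.5 to 73.7 in DOHH2. In TMD8 its range overlapped that of SYK and that of VAV2 (54.1 to 87.3). With median lengths PLCG2 stood above BLNK in both lines (medians 193 against 111 in TMD8 and 115 against 73.2 in DOHH2). PLCG2 ranged from 52.8 to 63.7 and from 32 to 38.5, and its place depended on the length used, since it moved from the eighth to the third place in TMD8 with the median length.

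The VAV family separated the lines most. VAV1, the haematopoietic member, ranged from 74.3 to 79.8 in TMD8 and from 21.5 to 26.7 in DOHH2. VAV2, the broadly expressed member, ranged from 54.1 to 87.3 and from 10.5 to 13.8. VAV3 ran the other way, at 0.98 to 1.51 in TMD8, from 77 to 156 reads per library, and 6.42 to 7.6 in DOHH2, from 482 to 746 reads. In TMD8, VAV1 and VAV2 overlapped and VAV3 was far below both, whereas in DOHH2 the ranges of VAV1, VAV2 and VAV3 did not meet. The order of VAV2 and VAV3 in DOHH2 rests on the length used, since the median transcript of VAV3 has 2271 bases and the longest 4990, and with median lengths the median level of VAV3 was 14.6 and that of VAV2 12.1.

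**Figure D1:**
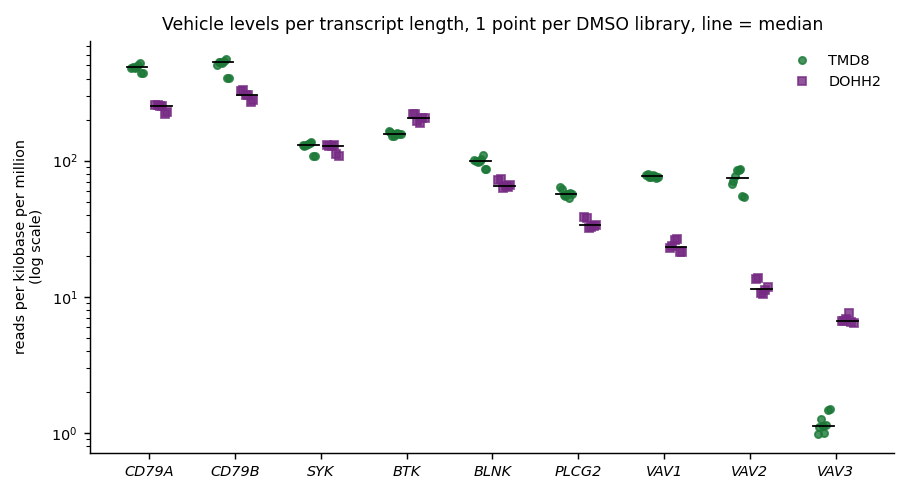
Vehicle levels of the 9 members by line, in RPKM on a log axis, with 1 point per DMSO library (8 of TMD8 at 1 to 24 h, 6 of DOHH2 at 1 to 6 h). VAV1 and VAV2 lie higher in TMD8 and VAV3 higher in DOHH2, while the SYK points of the lines overlap.

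On the log2 scale of the deposited values, all 9 members differed between the lines in vehicle at 1, 3 and 6 h (limma, 28 libraries, adjusted p under 0.05), 7 of them higher and 2 lower in TMD8, as did 89.4% of the 12000 features tested (43.8% higher and 45.6% lower). TMD8 was higher by 2.75 ± 0.03 (SE) for VAV2, 6.73-fold, and by 1.73 ± 0.02 for VAV1, 3.32-fold. It was also higher by 1.03 ± 0.02 for CD79A, 0.84 ± 0.02 for CD79B, 0.75 ± 0.02 for PLCG2, 0.61 ± 0.02 for BLNK and 0.13 ± 0.02 for SYK. The difference of TMD8 from DOHH2 was -2.61 ± 0.06 for VAV3, 6.09-fold, and -0.36 ± 0.02 for BTK. The SYK difference alone was no longer called with all times and all 32 libraries (0.08 ± 0.05, adjusted p = 0.141).

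Vehicle levels were not flat over time. In TMD8, 8 of 9 members changed over the 4 times in DMSO (F test, 58.4% of features called), and VAV1 did not pass (adjusted p = 0.182). VAV2 went from 13.52 and 13.55 at 6 h to 12.92 and 12.88 at 24 h (adjusted p over time 4.08e-12), and CD79B from 14.18 and 14.21 to 13.78 and 13.77 (1.25e-09). SYK in DMSO was 14.16 and 14.17 at 6 h and 13.87 and 13.85 at 24 h (8.15e-08). For these 3 genes both 24 h vehicle libraries were lower than every earlier one. In DOHH2, 8 of 9 changed over 1, 3 and 6 h in DMSO (52.9% of features), all but VAV3 (adjusted p = 0.0761).

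In TMD8 treated with CSKi, 6 of the 9 components were higher at 24 h and 0 lower, where 27.9% of all features were higher and 26.2% lower. CD79B rose most, 1.86-fold, followed by VAV2, BLNK, CD79A, SYK and PLCG2, while BTK, VAV1 and VAV3 were not called. The receptor chain CD79B, the kinase SYK and the exchange factor VAV2 were already higher at 6 h. BLNK moved down at 3 and 6 h and up at 24 h.

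The chain CD79B had TMD8 levels of 14.10 and 14.17 (log2) in the DMSO libraries at 1 h and 14.11 and 14.10 with CSKi (replicates 1 and 2). At 3 h the levels were 14.16 and 14.13 in DMSO and 14.26 and 14.19 in CSKi, and at 6 h 14.18 and 14.21 against 14.44 and 14.54. At 24 h they were 13.78 and 13.77 against 14.71 and 14.63. From 3 h on both CSKi libraries lay above both DMSO libraries, and the CSKi libraries at 24 h were the highest of all 16. The difference was 0.08 ± 0.04 at 3 h (adjusted p = 0.257), 0.29 ± 0.04 at 6 h (2.07e-06) and 0.89 ± 0.04 at 24 h (7.86e-16), where 96.9% of features had a lower value. The call at 3 h was gained under quantile normalization (0.13, adjusted p = 0.0379) and in a fit of the 4 libraries alone (0.0272).

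Its partner CD79A stood in TMD8 at 14.06 and 14.10 in DMSO and 14.07 and 14.10 in CSKi at 6 h, with the groups overlapping. At 24 h it stood at 13.90 and 13.88 in DMSO and 14.44 and 14.26 in CSKi. At 3 h both CSKi libraries lay below both DMSO libraries, but that difference of -0.07 ± 0.04 was not called (adjusted p = 0.399). CD79A was called only at 24 h, where it was higher by 0.46 ± 0.04 (1.38-fold, adjusted p = 3.70e-10).

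**Figure D2:**
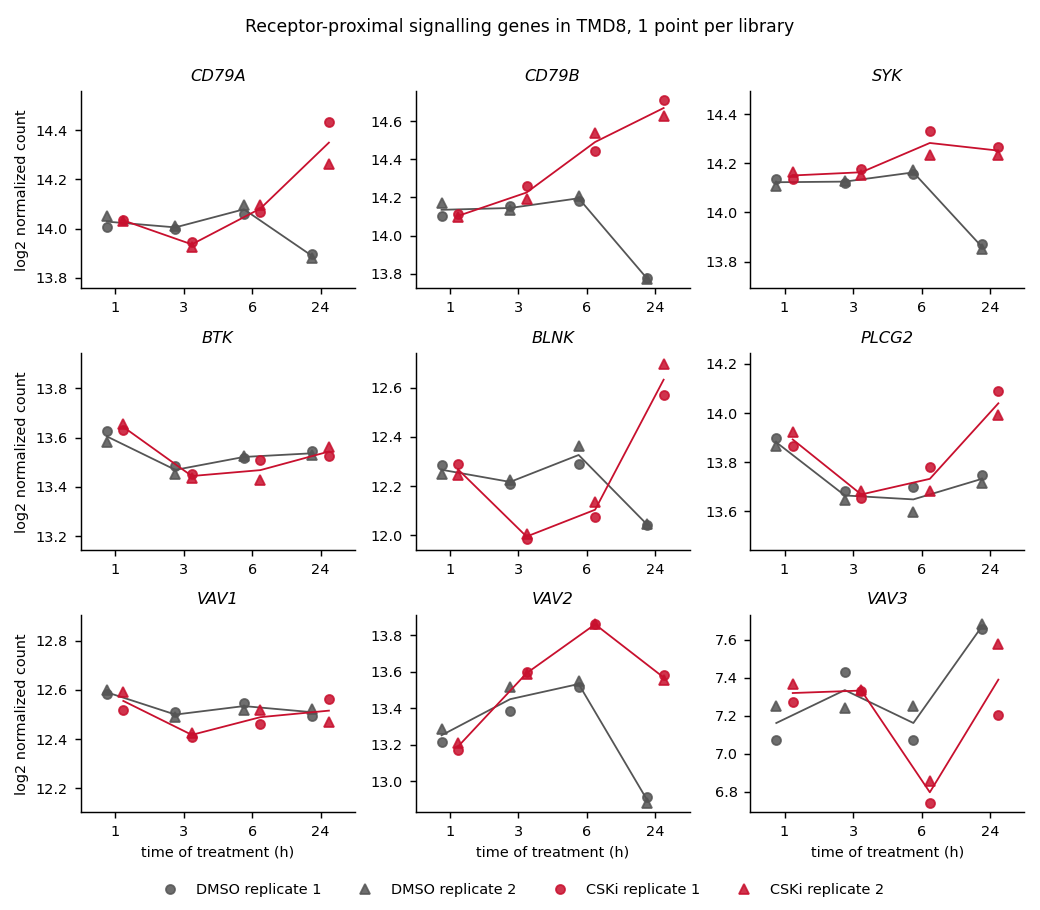
Log2 levels of the 9 members in the 16 TMD8 libraries by hours of treatment, grey for DMSO and red for CSKi, circles for replicate 1 and triangles for replicate 2, with lines joining group means. CD79B, VAV2 and SYK show both CSKi libraries above both DMSO libraries from 3 h on, and BLNK lies below DMSO at 3 and 6 h and above it at 24 h.

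SYK levels in TMD8 were 14.16 and 14.17 in DMSO against 14.33 and 14.23 in CSKi at 6 h, and 13.87 and 13.85 against 14.27 and 14.23 at 24 h. The groups did not overlap at either time. The difference was 0.12 ± 0.03 (adjusted p = 0.017) at 6 h and 0.39 ± 0.03 (1.31-fold, 4.07e-10) at 24 h. The 6 h call was lost without DMSO replicate 1 (0.135) or 2 (0.0737), and without CSKi replicate 1, where the difference was 0.07 (0.338).

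BTK showed no called difference in TMD8 at any time. Its levels at 24 h were 13.55 and 13.53 in DMSO and 13.53 and 13.56 in CSKi, which overlapped. The difference of 0.01 ± 0.03 had a 95% interval of -0.06 to 0.08.

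BLNK, the adaptor, had levels of 12.21 and 12.23 in DMSO against 11.98 and 12.01 in CSKi at 3 h, and 12.29 and 12.37 against 12.07 and 12.13 at 6 h. At 24 h the order turned, with 12.04 and 12.04 in DMSO and 12.57 and 12.70 in CSKi. None of these pairs of groups overlapped. BLNK fell by 0.22 ± 0.04 at 3 h (adjusted p = 0.00184) and by 0.22 ± 0.04 at 6 h (0.000801), and rose by 0.59 ± 0.04 at 24 h (1.50-fold, 2.99e-11). Of the 9 members, BLNK was the sole one called in both directions in TMD8.

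PLCG2 levels in TMD8 were 13.70 and 13.60 in DMSO against 13.78 and 13.68 in CSKi at 6 h, which overlapped. At 24 h they were 13.75 and 13.72 against 14.09 and 13.99, which did not. PLCG2 was higher by 0.31 ± 0.04 at 24 h (1.24-fold, adjusted p = 5.99e-07).

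The VAV genes did not move together in TMD8. VAV2 had levels of 13.38 and 13.52 in DMSO against 13.60 and 13.59 in CSKi at 3 h, and 13.52 and 13.55 against 13.86 and 13.86 at 6 h. Both CSKi libraries lay above both DMSO libraries at each time, as they did at 24 h, with 12.92 and 12.88 against 13.59 and 13.55. VAV2 rose by 0.14 ± 0.04 at 3 h (adjusted p = 0.0315), 0.33 ± 0.04 at 6 h (1.25-fold, 1.16e-06) and 0.67 ± 0.04 at 24 h (1.59-fold, 3.29e-13). The 3 h call was lost without DMSO replicate 1 (0.08, adjusted p = 0.528), CSKi replicate 1 (0.194) or CSKi replicate 2 (0.162).

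VAV1 at 24 h read 12.49 and 12.52 in DMSO and 12.56 and 12.47 in CSKi, with a 95% interval of the difference of -0.08 to 0.09. VAV3, the scarce member of the family in this line, read 7.66 and 7.68 against 7.20 and 7.58. Its groups did not overlap, but the difference of -0.28 ± 0.15 missed the threshold (adjusted p = 0.129). It was called without CSKi replicate 2 (-0.47, adjusted p = 0.0335) and under quantile normalization (-0.45, 0.0175).

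By time, TMD8 had 0 of 9 members called at 1 h (limma, 0 with an unadjusted p under 0.05, 0.05% of features called), 2 at 3 h (1 each way, against 4.73% of features, 1.47% higher and 3.26% lower), 4 at 6 h (3 higher and 1 lower, against 12.7%, 5.67% higher and 6.98% lower) and 6 at 24 h (against 54%). The median difference over the members at 24 h was 0.391, against 0.015 over all features. At 24 h the summed fibroblast and epithelial markers were 175 to 185 CPM in CSKi and 124 to 134 in DMSO, and the myeloid markers 87.5 to 92.0 and 63.8 to 65.1. Germinal centre markers summed to 133 to 135 in CSKi and 213 in DMSO, and markers of the activated B cell type to 3473 to 3537 and 4024 to 4073. The B cell markers, CD79A and CD79B among them, summed to 4797 to 4979 in CSKi and 3650 to 3697 in DMSO. T and NK cell markers summed to 13.9 to 15.9 and 12.1 to 13.3. The part of these marker shifts in the results was not tested. The response changed over time for 6 of 9 members (F test, 39.4% of features), namely CD79A, CD79B, SYK, BLNK, PLCG2 and VAV2. Lower vehicle levels at 24 h than at 6 h accompanied the 24 h differences of CD79A, CD79B, SYK, BLNK and VAV2, as the values above show. In the CSKi libraries, VAV2 stood lower at 24 h (13.59 and 13.55) than at 6 h (13.86 and 13.86), and the SYK values of these times overlapped (14.27 and 14.23 against 14.33 and 14.23). Both CSKi libraries were higher at 24 h than at 6 h for CD79A, CD79B, BLNK and PLCG2. CD79A read 14.44 and 14.26 against 14.07 and 14.10, and CD79B 14.71 and 14.63 against 14.44 and 14.54. BLNK read 12.57 and 12.70 against 12.07 and 12.13, and PLCG2 14.09 and 13.99 against 13.78 and 13.68. In DMSO, PLCG2 was not lower at 24 h (13.75 and 13.72) than at 6 h (13.70 and 13.60). The part of the vehicle changes in the 24 h differences was not tested.

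**Figure D3:**
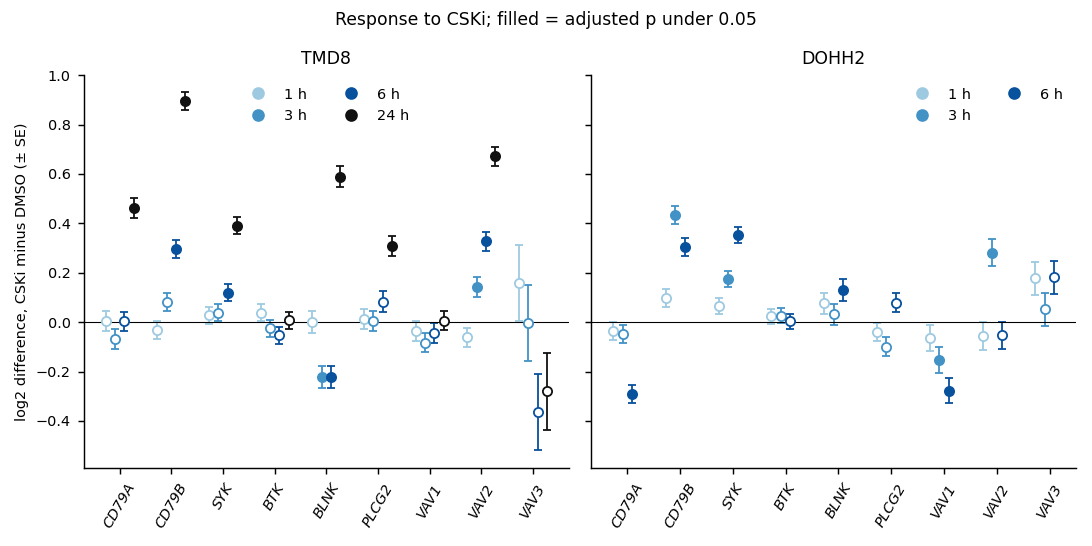
Difference of CSKi from DMSO in log2 for each member by time, in TMD8 and in DOHH2 (1, 3 and 6 h), with bars of 1 SE of the limma fit and filled points at adjusted p under 0.05. In TMD8 the CD79B difference reaches 0.89 at 24 h, and in DOHH2 CD79B and SYK are higher while CD79A and VAV1 are lower at 6 h.

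In DOHH2, CD79B and SYK were higher with CSKi at 3 and 6 h, while CD79A and VAV1 were lower at 6 h. VAV2 was higher at 3 h and BLNK slightly higher at 6 h. BTK, PLCG2 and VAV3 were not called at these times.

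CD79B levels in DOHH2 were 13.33 and 13.34 in DMSO against 13.75 and 13.78 in CSKi at 3 h, and 13.14 and 13.18 against 13.40 and 13.53 at 6 h. The groups were apart at both times, by 0.43 ± 0.04 (1.35-fold, adjusted p = 2.45e-09) and 0.30 ± 0.04 (1.23-fold, 7.21e-07). CD79A went the other way at 6 h, with 12.85 and 12.88 in DMSO and 12.53 and 12.63 in CSKi, again without overlap. It fell by 0.29 ± 0.04 (1.22-fold, adjusted p = 1.86e-06).

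SYK levels in DOHH2 were 14.08 and 14.09 against 14.24 and 14.28 at 3 h, and 13.86 and 13.79 against 14.16 and 14.20 at 6 h (DMSO against CSKi). Both CSKi libraries exceeded both DMSO libraries at each time. SYK was higher by 0.17 ± 0.03 (adjusted p = 0.000273) and 0.35 ± 0.03 (1.28-fold, 4.87e-09). BTK at 6 h read 13.88 and 13.86 in DMSO and 13.86 and 13.88 in CSKi, with a 95% interval of the difference of -0.06 to 0.07.

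BLNK at 6 h in DOHH2 stood at 11.57 and 11.61 in DMSO and 11.75 and 11.69 in CSKi. The 0.13 ± 0.04 difference was just past the threshold (adjusted p = 0.0445) and was lost without DMSO replicate 1 (0.261) or 2 (0.0764) or CSKi replicate 1 (0.218). PLCG2 at 3 h stood at 12.87 and 12.90 in DMSO against 12.72 and 12.85 in CSKi. That difference of -0.10 ± 0.04 missed the threshold (0.0788) and passed with total mapped read scaling (0.0259), with voom on the recovered reads (0.0326) and with the replicate number as a block (0.0395).

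VAV1 fell in DOHH2 by 0.28 ± 0.05 at 6 h (1.21-fold, adjusted p = 0.000422), with 10.65 and 10.64 in DMSO and 10.38 and 10.36 in CSKi. At 3 h it fell by 0.15 ± 0.05 (0.0451), from 10.94 and 10.98 to 10.84 and 10.78, a call that was lost without any single one of the 4 libraries (adjusted p up to 0.26). VAV2 rose by 0.28 ± 0.06 at 3 h (1.22-fold, 0.000748), from 10.50 and 10.49 to 10.74 and 10.81. At 6 h VAV2 stood at 10.56 and 10.63 in DMSO and 10.47 and 10.61 in CSKi, which overlapped. VAV3 at 6 h was 9.76 and 9.72 in DMSO and 9.88 and 9.97 in CSKi, apart but not called (0.18 ± 0.07, adjusted p = 0.0695), and it passed with the replicate number as a block (0.0489).

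**Figure D4:**
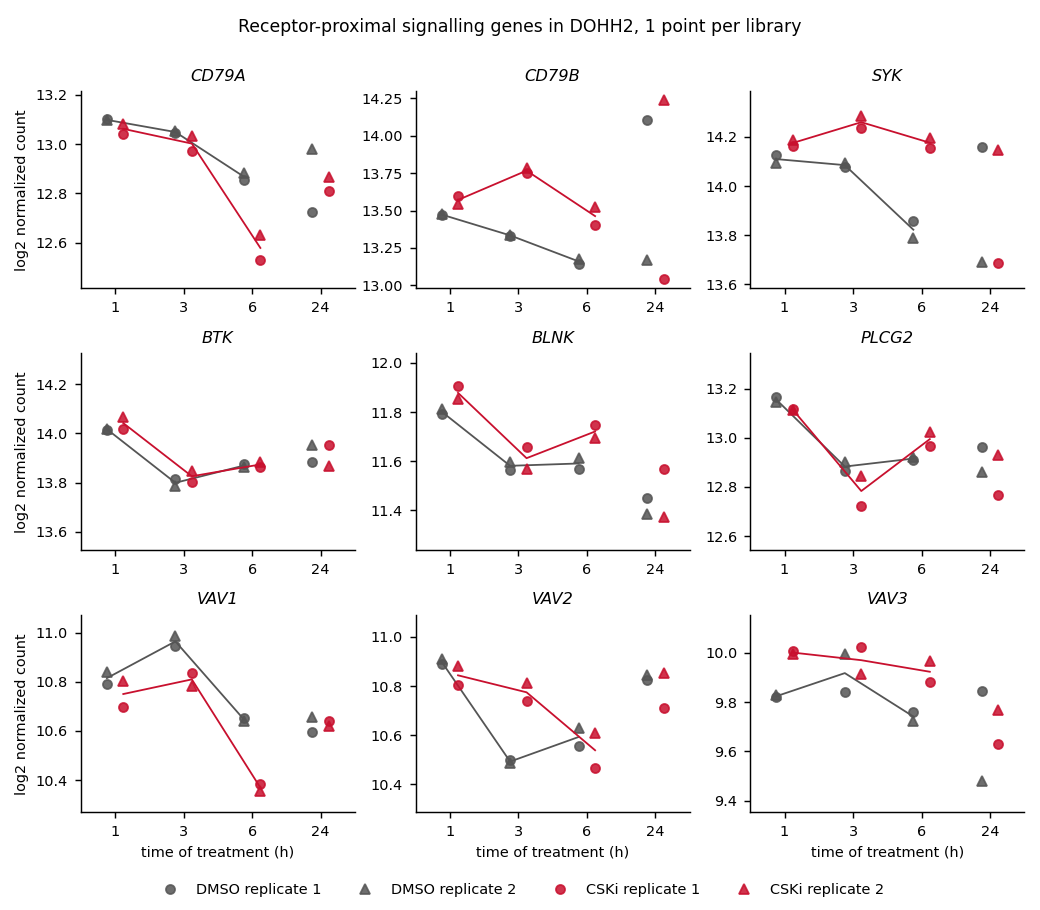
Log2 levels of the 9 members in the 16 DOHH2 libraries by hours of treatment, grey for DMSO and red for CSKi, circles for replicate 1 and triangles for replicate 2, with lines joining group means at 1, 3 and 6 h. At 24 h the high CD79B and SYK points are DMSO replicate 1 and CSKi replicate 2.

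In all, DOHH2 had 0 of 9 members called at 1 h (limma, 3 with an unadjusted p under 0.05, 2.05% of features called, 0.825% higher and 1.23% lower). At 3 h 4 were called, 3 higher and 1 lower, against 14.5% of features, 7.27% higher and 7.27% lower. At 6 h 5 were called, 3 higher and 2 lower, against 13.6%, 6.96% higher and 6.67% lower. When the 24 h libraries were kept in the fit, 1 member was called at 3 h and 1 at 6 h, and the share of all features called was 2.63 and 0.883%. The differences stayed the same by construction and the SE grew, for CD79B at 3 h to 0.29 (adjusted p = 0.55) and for SYK at 6 h to 0.13 (0.248).

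At 24 h, as labelled, 0 of 9 members and 0% of features were called in DOHH2 (limma, 0 members with an unadjusted p under 0.05). CD79B stood at 14.10 and 13.17 in DMSO and at 13.04 and 14.24 in CSKi, and SYK at 14.16 and 13.69 against 13.69 and 14.15. DMSO replicate 1 and CSKi replicate 2 were the high libraries for both genes, and the duplicates of each treatment differed more than the treatments. The labelled difference was 0.00 ± 0.29 for CD79B and -0.01 ± 0.13 for SYK. VAV3 showed the same order, with 9.85 and 9.77 in those libraries and 9.48 and 9.63 in the others. No direction at 24 h was drawn from these libraries.

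The responses of the lines were compared directly at 1, 3 and 6 h, as the TMD8 difference minus the DOHH2 difference. At 1 h, 0 of 9 members differed (limma, 1 with an unadjusted p under 0.05, 0.45% of features called), at 3 h 2, both with a lower value in TMD8 (4.83%, 2.18% higher and 2.64% lower), and at 6 h 6, 3 each way (5.97%, 2.52% higher and 3.46% lower). The CD79B response was smaller in TMD8 at 3 h, by -0.35 ± 0.05 (adjusted p = 0.000227), and at 6 h the lines' CD79B responses were 0.29 and 0.30. SYK responded less in TMD8 at 6 h (-0.23 ± 0.04, 0.00115). The CD79A responses at 6 h were 0.00 in TMD8 and -0.29 in DOHH2, a difference of 0.29 ± 0.06 (0.00148).

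The BLNK response also lay lower in TMD8, with a difference between the lines of -0.25 ± 0.06 at 3 h (adjusted p = 0.0116) and -0.35 ± 0.06 at 6 h (0.000286). VAV2 differed by 0.38 ± 0.06 at 6 h (0.000377), VAV1 by 0.23 ± 0.06 (0.0137) and VAV3 by -0.55 ± 0.15 (0.0343). The call of BLNK at 3 h was lost in 4 of the fits that left out 1 library (adjusted p up to 0.0791), that of VAV1 at 6 h in 3 (up to 0.0897) and that of VAV3 at 6 h in 7 (up to 0.173).

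The balance between the 2 receptor chains was described by their ratio. The ratio of CD79B to CD79A per transcript length, which was not tested, was 1.08 and 1.07 in TMD8 DMSO at 6 h and 1.29 and 1.34 in CSKi. At 24 h it was 0.913 and 0.919 in DMSO and 1.20 and 1.28 in CSKi. In DOHH2 the ratio was 1.21 and 1.22 in DMSO at 6 h and 1.82 and 1.85 in CSKi. CSKi libraries lay above DMSO libraries at 3 and 6 h in both lines, and at 1 h in DOHH2 (1.46 and 1.37 against 1.28 and 1.29). At 24 h in DOHH2 it was 2.58 and 1.13 in the DMSO libraries and 1.17 and 2.57 in the CSKi libraries, with the high values in DMSO replicate 1 and CSKi replicate 2. The ratio uses the longest transcripts (1258 bases for CD79A and 1269 for CD79B), and the median transcripts (801 and 1254 bases) lower every ratio by the same factor, to below 1 at the median of TMD8 vehicle (533 RPKM for CD79B and 759 for CD79A).

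**Figure D5:**
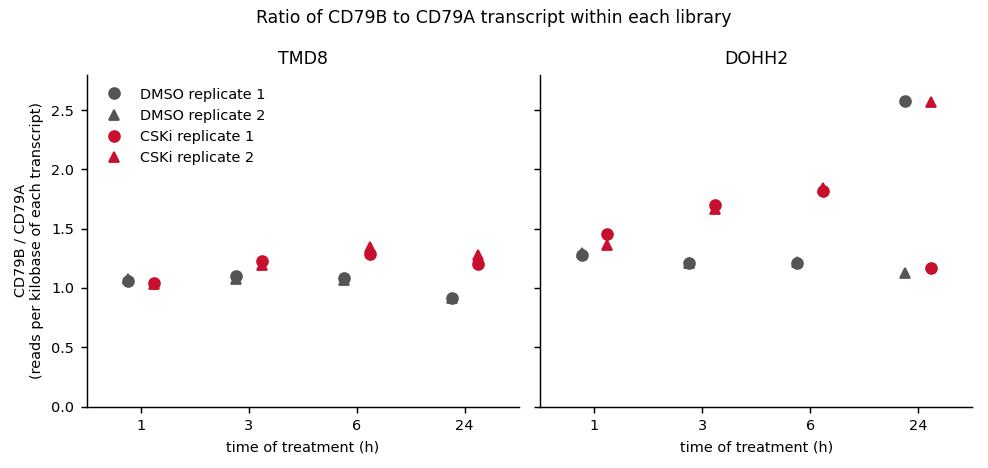
Ratio of CD79B to CD79A reads per length of the longest transcript in each library by time, for TMD8 and DOHH2, from 0 on a linear axis, grey for DMSO and red for CSKi. The DOHH2 CSKi libraries at 6 h reach 1.82 and 1.85, and DMSO replicate 1 and CSKi replicate 2 at 24 h stand apart at 2.58 and 2.57.

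Within the VAV family, VAV2 made up 42.1 and 41.0% of the summed VAV1, VAV2 and VAV3 reads per length in TMD8 DMSO at 24 h and 52.6 and 53.6% in CSKi. VAV3 made up 0.435 to 1.14% in TMD8 and 13.3 to 20.6% in DOHH2, whose VAV1 share was 47.8 to 59.9% and VAV2 share 23.4 to 33.5%. These shares use the longest transcripts, and with median lengths VAV3 stood above VAV2 in DOHH2 vehicle, as given above.

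Other genes of the pathway were read from 5 lists, of which 92 genes were tested in TMD8 and 97 in DOHH2. In TMD8, 0 were called at 1 h (0.05% of all features), 5 were higher and 13 lower at 3 h (1.47 and 3.26% of all features), 8 and 18 at 6 h (5.67 and 6.98%), and 48 and 15 at 24 h (27.9 and 26.2%). In DOHH2, 1 was higher and 2 lower at 1 h (0.825 and 1.23%), 15 and 22 at 3 h (7.27 and 7.27%), and 18 and 15 at 6 h (6.96 and 6.67%).

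Of the inhibitors of receptor signalling, 7 of 20 tested were lower and 1 higher in TMD8 at 3 h, where 3.26% of all features were lower and 1.47% higher. At 6 h 6 were lower and 2 higher (6.98 and 5.67% of all features), and at 24 h 4 were lower and 13 higher (26.2 and 27.9%), with a median of 0.268 against 0.015 over all features. PTPN6, the phosphatase SHP-1, had differences of -0.75 ± 0.03, -1.22 ± 0.03 and -0.40 ± 0.03 in TMD8 at 3, 6 and 24 h, and of -0.41 ± 0.05, -0.82 ± 0.05 and -0.61 ± 0.05 in DOHH2 at 1, 3 and 6 h, all called. The inhibitory receptor LAIR1 differed by -1.78 ± 0.16 at 6 h in TMD8 and by 0.53 ± 0.13 in DOHH2, both called. CEACAM1, another inhibitory receptor, was higher by 1.80 ± 0.07 at 24 h in TMD8, and CD72 was lower in DOHH2, by -0.84 ± 0.07 at 3 h and -0.68 ± 0.07 at 6 h. CSK itself, the kinase that the compound is named for, fell at 3 h in both lines, by 0.14 ± 0.03 in TMD8 (adjusted p = 0.0216) and by 0.16 ± 0.04 in DOHH2 (0.00574). At 6 h it fell by 0.21 ± 0.04 in DOHH2 (0.000504), and it was not called in TMD8 at 1, 6 or 24 h.

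Among the other receptor proximal kinases, 4 of 10 were higher and 2 lower in TMD8 at 24 h (median 0.127), close to the 27.9 and 26.2% of all features. The Src family member SRC differed by -0.80 ± 0.15. LYN differed by -0.14 ± 0.04 at 6 h in TMD8 (adjusted p = 0.0108). In DOHH2 it differed by -0.13 ± 0.04 at 3 h (0.0316) and by 0.13 ± 0.04 at 6 h (0.0318). PIK3CG, a catalytic subunit of PI3 kinase, was lower in TMD8 at 3 and 6 h (-0.36 ± 0.07 and -0.38 ± 0.07), higher there at 24 h (0.47 ± 0.07), and higher in DOHH2 at 3 and 6 h (0.68 ± 0.07 and 0.59 ± 0.07).

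Of the adaptors and scaffolds, 10 of 20 were higher and 2 lower in TMD8 at 24 h (27.9 and 26.2% of all features), with SH2D3C higher by 1.17 ± 0.05. In DOHH2 at 6 h, 3 of 21 were higher and 3 lower (6.96 and 6.67% of all features). GAB1, a docking protein for PI3 kinase, was higher there by 0.80 ± 0.04, and SH3BP2 and LAT2 differed by -0.59 ± 0.06 and -0.52 ± 0.05. Downstream of PLCG2 and VAV, 18 of 37 were higher and 7 lower in TMD8 at 24 h, again against 27.9 and 26.2% of all features, with a median of 0.096 against 0.015. ORAI2, of the calcium channel family that opens when stores empty, was higher by 0.70 ± 0.05 at 6 h and 1.05 ± 0.05 at 24 h in TMD8, and STIM2, a sensor of those stores, by 0.51 ± 0.04 at 6 h in DOHH2. At 6 h in TMD8, 2 of the 37 were higher and 6 lower (5.67 and 6.98% of all features). NFATC1 differed there by -0.59 ± 0.07 at 3 h and by -0.75 ± 0.07 at 6 h, both called. Of the 13 receptor chains and coreceptors listed, 8 were among the deposited features and 5 were tested in TMD8. At 24 h 3 of these 5 were higher and 0 lower (27.9 and 26.2% of all features), among them CD81, a tetraspanin, by 0.65 ± 0.04.

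The features most alike each called member over the 16 TMD8 libraries, by Pearson's r on the log2 levels, are given as a description, since these libraries share treatments and times. For CD79B they were TNFRSF21 (0.987), SLC43A2 (0.981) and PDE1B (0.971), and for CD79A RPLP1 (0.969) and DNAJC4 (0.969). SYK was most like NLRP7 (0.974), OLFML2A (0.963) and SNX1 (0.959), and VAV2 most like KIAA1217 (0.964), TRAF3 (0.957) and ZC3H7A (0.949). PLCG2 was most like DUSP5 (0.958), FCRL3 (0.958) and HIST1H2BD (0.953), and BLNK, with the weakest likeness, LAPTM5 (0.915), LRP10 (0.915) and ALOX5AP (0.899). Among the members themselves r was 0.876 for CD79B and SYK, 0.868 for SYK and VAV2 and 0.846 for CD79A and BLNK. The lowest values were -0.7155 for SYK and VAV3 and -0.712 for VAV2 and VAV3.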

How the data were processed

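RNA from 32 libraries was sequenced as paired 75 base reads from TruSeq stranded mRNA libraries, per the labels' protocols. Per the submitters' processing notes, HTSeq and the build hg19 were used; no aligner, HTSeq version or strand setting is given in the sources used here, so reads of BLNK, PLCG2 and VAV3 cannot be told from those of genes that overlap them. The values deposited by the authors were log2 transformed counts, scaled by 1 constant in each library, and a gene without reads has the value 0; this was read from the values. Dividing out that constant left whole reads (tolerance 0.1) for 97.9 to 100% of the values that reach 300 reads at most. These recovered reads gave the RPKM, the marker sums and the ratios, with transcript lengths from GENCODE v29. The row that holds mapped totals entered no test.

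The deposited log2 values were fitted with limma 3.58.1 in R 4.3.3 in a model with 1 mean per group and a variance trend (eBayes, trend=TRUE). Tests were two-sided, with p-values adjusted by Benjamini-Hochberg across the 12000 features of highest mean level. A feature was called at adjusted p under 0.05. TMD8 was fitted on 16 libraries (8 residual degrees of freedom), DOHH2 at 1, 3 and 6 h on 12 (6), and the lines together on 28 (14). The DOHH2 24 h contrast came from all 16 libraries of that line. F tests compared times with 1 h. Every ± is the SE of the fit, with 2 libraries per group. The fit was also run on simulated counts, which had the same dispersion for every gene and no change over time in vehicle. That run therefore does not measure the error rate in these libraries. All 9 members are named, with up to 2 genes each way per list and comparison that had the largest called differences, CSK, LYN and PTPN6, and the 3 features most alike each member called in TMD8; the text gives a selection of these, and a few are not reported here. The members and the lists were chosen with earlier results of these data known. Outside DOHH2 at 24 h, same-numbered duplicates deviated little together (r of -0.005 to 0.166). In DOHH2 at 24 h they deviated in opposite directions (r of -0.476). The numbers were therefore not used as pairs. Alternatives were other filters, variance settings, scalings, voom on the recovered reads, the fit of 4 libraries alone, a replicate block, leaving out each library, and keeping the DOHH2 24 h libraries.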

Additional observations from a re-analysis of the deposited data

Results flagged for a closer look

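The response to CSKi differed between the lines, by the test of the difference itself, for CD79B (-0.352, TMD8 minus DOHH2 in log2) and BLNK (-0.253) at 3 h. At 6 h it differed for CD79A (0.2925), SYK (-0.234), BLNK (-0.3525), VAV1 (0.232), VAV2 (0.3805) and VAV3 (-0.547). In TMD8 the response differed between times for CD79A (adjusted p = 6.66e-08), CD79B (2.54e-12), SYK (1.7e-06), BLNK (1.75e-10), PLCG2 (0.000301) and VAV2 (8.47e-10).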

How the results depend on the processing

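Over the comparisons with a signed difference, 38 member values were called, and no alternative turned the sign of any of them. The number called in TMD8 at 3 h, 2 as reported, was 1 with no filter on low values, 1 without the variance trend and 1 after median centring. The share of all features called there was 1.96, 2.82 and 4.79%, in place of 4.73%. Under each of these 3 settings TMD8 at 6 h had 3 called, 2 higher and 1 lower, in place of 4. Over all features 5.69, 9.34 and 12.3% were called, in place of 12.7%. With no filter, and also without the trend, DOHH2 at 3 h had 3 higher and 0 lower (5.99 and 8.53% of all features called, in place of 14.5%). Under the same 2 settings DOHH2 at 6 h had 2 higher and 2 lower (5.745 and 7.9% of all features called, in place of 13.6%). With the DOHH2 24 h libraries kept, the number in DOHH2 was 1 at 3 h and 1 at 6 h, in place of 4 and 5. Of all features, 2.625 and 0.883% were called, in place of 14.5 and 13.6%. In that setting the number that differed between the lines was 0 at 3 h and 3 at 6 h, in place of 2 and 6. The share of all features fell likewise, to 1.26 and 2.08%, in place of 4.83 and 5.97%. The line difference at 3 h was called for 1 member by voom, and for 5.13% of all features. Leaving out 1 library at a time gave 1 to 2 members in TMD8 at 3 h, 3 to 4 at 6 h and 6 to 7 at 24 h, 3 to 4 and 4 to 5 in DOHH2 at 3 and 6 h, and 1 to 2 and 4 to 6 for the line difference. With the replicate number as a block, 5 members were called in DOHH2 at 3 h and 6 at 6 h, and the other numbers were as reported. This block also raised the share of all features called in DOHH2, to 17.2 and 16.8%, in place of 14.5 and 13.6%. A crossed replicate block for the DOHH2 24 h libraries, chosen after seeing the data, called 0. It kept the treatment labels, so it could not test whether those labels are crossed. With 2 libraries per group, several calls were lost without 1 library, as given beside them in the report. VAV3 in TMD8 rests on few reads.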
